A study of Arabidopsis thaliana with 24 samples.

Results

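Rosettes of the Arabidopsis thaliana line jaz4-1 were compared with rosettes of the wild type Col-0 at dawn (ZT0), the moment at which the lights came on. The comparison used every library that the labels place in either line at that time, 3 of jaz4-1 and 3 of Col-0, which were 6 of the 24 RNA-seq libraries of the study. jaz4-1 (SALK_141628C) is 1 T-DNA insertion line of the gene JAZ4 in the Col-0 background, so other differences carried by this line cannot be told apart from the insertion. Col-0 was stock CS60000. Both lines grew on soil at 22 °C with 12 h of light a day, received no other treatment and were 3 weeks old at harvest. Each library came from a biological replicate of 6 pooled rosettes, and the other 18 libraries held the same lines at ZT6, ZT12 and ZT18.

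JAZ proteins repress jasmonate responses: they bind transcription factors such as MYC2 and hold them silent until the hormone, jasmonoyl-isoleucine, brings JAZ proteins to the receptor COI1 for destruction. Jasmonate signalling is best known in defence against insects and necrotrophic fungi. Defence against biotrophic pathogens depends more on salicylate, made from chorismate and perceived by NPR proteins, and the salicylate and jasmonate pathways often restrain each other. In leaves, many immunity genes and many genes of starch use also follow the circadian clock, whose morning genes CCA1 and LHY peak near dawn.

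The 6 libraries held 16832226 to 22644745 reads assigned to genes, with 18959 to 21076 genes detected. Neither quantity differed between the lines beyond its spread (exact permutation p 0.3 and 0.7, 2-sided; the smallest that 3 against 3 libraries allow is 0.1). A pair of libraries stood apart. Replicate 2 of Col-0 had the fewest genes detected and took 0.365% of its reads from chloroplast genes, and replicate 3 of jaz4-1 took 0.484%, against 0.0635% to 0.0845% in the other 4. Calls of named genes that were lost without both libraries are listed with the counts of calls. The leaf mesophyll markers were high in all 6 libraries (5 genes, summed level 1350259 to 1963260 normalised reads). The 8 floral markers summed to 6.07 to 38.1 normalised reads, with 1 of them at 0 reads throughout, and the 7 root markers to 656 to 855. Seed storage markers were at 0 in 5 libraries and at 3.98 normalised reads in replicate 1 of Col-0.

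JAZ4 itself (deposited symbol TIFY6A, AT1G48500) was scarcely detected at dawn. The jaz4-1 libraries of replicates 1, 2 and 3 held 0, 0 and 6 reads of it and the Col-0 libraries 0, 8 and 9. Replicate 3 of jaz4-1 was the only library of that line with a read, and the lines overlapped, because replicate 1 of Col-0 had none. Summed over libraries and scaled for depth, Col-0 had 3.09 times as much as jaz4-1 (95% counting interval 1.16 to 9.56, which covers counting error only). The fitted difference was -1.34 ± 0.99 on the log2 scale and did not pass the test (adjusted p 0.598). The table gives a single count for the gene, and transcript upstream of the insertion cannot be told apart from transcript downstream of it. Of the 35 tested genes within 100 kb of JAZ4, 0 were called, and their log2 fold changes ran from -1.04 to 0.46 with a median of -0.07. Across all tested genes 0.923% were called, so a count of 0 among so few says little about this region.

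Across the genome 19614 genes had enough reads to be tested. Each was tested with limma on log2(value + 1), where the value is the deposited read count divided by the library's size factor, called normalised reads here. Every fold change below is jaz4-1 minus Col-0 on that log2 scale, with its SE, and a gene was called at a Benjamini-Hochberg adjusted p under 0.05. At dawn 181 genes were called (0.923%), 144 higher in jaz4-1 (0.734% of those tested) and 37 lower (0.189%). Without adjustment 2556 genes had p under 0.05, and the 3 libraries of one line lay wholly above those of the other in 2229 genes (11.4%). That held for 142 of the higher genes, all but STP1 and SUC2, and for 36 of the lower ones, all but LSH3. The higher genes had a median of 1.101, with 77 above 1 and 42 above 2, and the lower genes a median of -0.98, with 17 below -1 and 5 below -2. The median over all tested genes was 0.01. The p-values rest on a spread estimated over all 24 libraries of the study, not over the 6 dawn libraries alone.

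**Figure D1:**
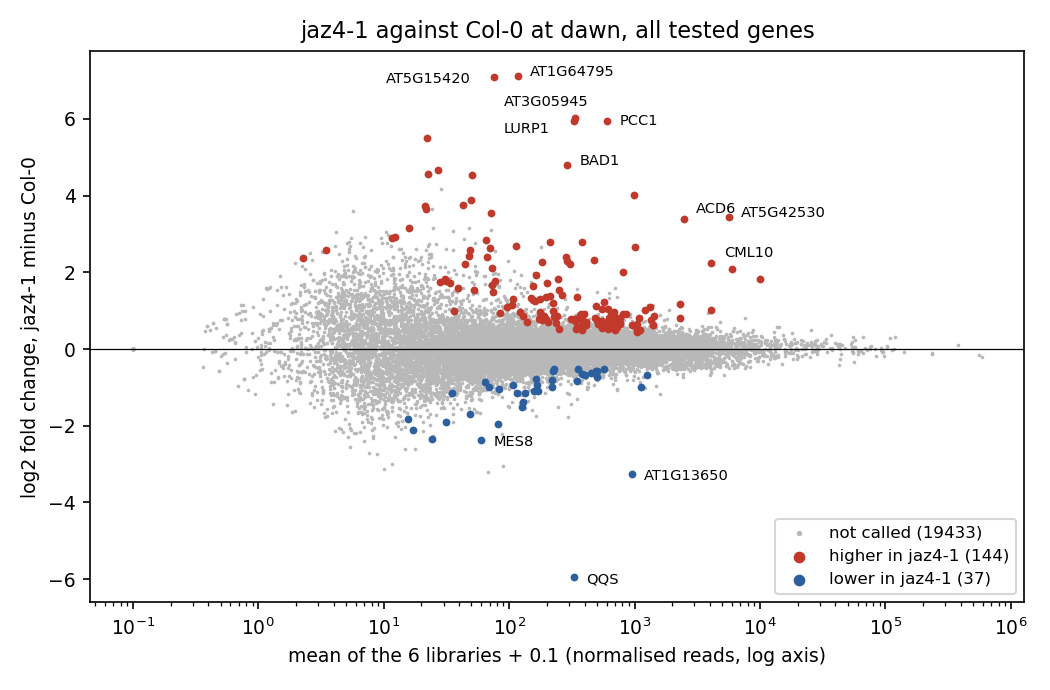
Log2 fold change of each of the 19614 tested genes at dawn (vertical axis, jaz4-1 minus Col-0) against its mean over the 6 libraries in normalised reads plus 0.1 (horizontal axis, log scale). The 144 genes called higher are red, the 37 called lower are blue and the rest grey. PCC1, LURP1 and 3 loci without a symbol lie near 6 or above, and QQS lies near -6 and AT1G13650 near -3.

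The number of calls depended on single libraries. It fell to 74 higher genes without jaz4-1 replicate 1 or 3 and to 82 without Col-0 replicate 2, and rose to 439 without Col-0 replicate 3. Lower genes numbered 19 and 82 when replicate 1 or 2 of jaz4-1 was left out, and 17, 15 and 224 when replicate 1, 2 or 3 of Col-0 was. Without both libraries that stood apart there were 67 higher and 34 lower genes. In 87 of the 144 higher genes replicate 3 of jaz4-1 was the highest library of its line, against 40.4% of all tested genes, so its part in their size is given gene by gene below. A total of 57 higher and 7 lower genes were called in each of the 6 fits that leave out 1 dawn library. With the replicate number as a block, 185 genes were higher (0.943%) and 90 lower (0.459%), among them 129 of the 144 and 31 of the 37.

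The calls also depended on the libraries that gave the estimate of spread. With only the 6 dawn libraries in the fit, 26 genes were called higher and 3 lower, all of them among the 181, and 152 calls were lost (adjusted p 0.0598 to 0.886). The genes described below that kept their call in that fit were PCC1, AT3G22235, LURP1, WAK1, LLP, ACD6, DMR6, EDS1B, SARD1, BAD1, AT5G42530, WRKY70, WRKY54, SOBIR1, RLK1, ZAR1, CML10, AT5G59670, AT1G64795, AT5G15420, AT1G75945 and AT3G05945 among the higher genes, and QQS, AT1G13650 and MES8 among the lower ones. Every other call described below was lost in it. Without both libraries that stood apart, 111 of the 181 calls were lost (adjusted p 0.0557 to 0.373). Beside those with a value given at the gene, the named genes among these were ADR1-L1 (adjusted p 0.0649), LECRK44 (adjusted p 0.0662), MIK2 (adjusted p 0.0793), SIB1 (adjusted p 0.111), SARD1 (adjusted p 0.127) and MKK1 (adjusted p 0.134), and further NDR1, NPR1, ADR1-L2, RPS6, CRK5, CRK15, AT4G23140, AT1G70520, WAKL9, MKK2, CRT3, STP1, SUC2, DUR3, XYL2, AT2G08585, AT5G59680, AT5G27280, FLZ8, LSH3, NDB1, TIM21 and PAD2. Limma-voom ended 66 calls, among them those of AED1, CRK9, HO3, SIB1, AT3G59250, FLZ8, AT1G69523 and AT1G69526, and edgeR ended 35, among them those of NPR1, STP1, SUC2, DUR3, AT1G69526 and AT5G27290.

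The largest rises among genes with a known role were in genes of immunity. PCC1 (AT3G22231), a small cysteine-rich membrane protein whose gene responds to pathogens and to the clock, had 572, 780.4 and 2245 in jaz4-1 and 13.5, 21.9 and 11.6 in Col-0 (replicates 1, 2 and 3, normalised reads, here and below). Every jaz4-1 library lay far above every Col-0 library, and replicate 3 was the highest, at about 3 to 4 times the other jaz4-1 libraries. PCC1 differed by 5.96 ± 0.64 (adjusted p 8.09e-05). AT3G22235, a gene for another cysteine-rich membrane protein on the same strand of chromosome 3, had 1205, 1358 and 3027 in jaz4-1 and 69.3, 99.6 and 162 in Col-0, a difference of 4.02 ± 0.47 (adjusted p 0.000139). These genes lay 7585 bases apart with 3 annotated genes between them, none of which was tested. LURP1 (AT2G14560), needed for basal defence against downy mildew, had 449, 362 and 1149.9 in jaz4-1 and 10.4, 3.64 and 13.9 in Col-0. It differed by 5.96 ± 0.93 (adjusted p 0.00264), with groups that did not overlap, and lost its call without both libraries that stood apart (4.96 ± 1.15, adjusted p 0.0836) and by limma-voom, which was also the alternative that ended the call of PCC1 (adjusted p 0.361 and 0.137).

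The bases upstream of 5 of these genes are shown because 4 of them hold the letters TTGAC, the core of the W-box that WRKY proteins bind, or TGACG, the core bound by TGA factors, which work with NPR1. The 5 were chosen after their values were seen, among windows that overlap no other annotated gene. Each run is the 250 bases before the annotated gene start in the RefSeq TAIR10.1 assembly, printed 5′ to 3′ on the strand of the gene. Capitals mark TTGAC and TGACG on either strand, and the matches may overlap each other.
PCC1, chr3:7846834-7847083, minus strand: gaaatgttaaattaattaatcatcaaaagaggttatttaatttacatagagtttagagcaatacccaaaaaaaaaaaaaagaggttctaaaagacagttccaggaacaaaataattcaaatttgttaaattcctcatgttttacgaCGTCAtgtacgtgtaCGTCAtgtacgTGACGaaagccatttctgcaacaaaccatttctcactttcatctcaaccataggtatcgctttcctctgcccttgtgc
AT3G22235, chr3:7855815-7856064, minus strand: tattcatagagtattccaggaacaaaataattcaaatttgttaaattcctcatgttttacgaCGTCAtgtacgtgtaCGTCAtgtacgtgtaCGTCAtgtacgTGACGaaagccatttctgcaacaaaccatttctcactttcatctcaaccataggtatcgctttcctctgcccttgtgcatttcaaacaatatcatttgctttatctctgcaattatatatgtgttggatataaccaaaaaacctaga
WRKY70, chr3:20910624-20910873, minus strand: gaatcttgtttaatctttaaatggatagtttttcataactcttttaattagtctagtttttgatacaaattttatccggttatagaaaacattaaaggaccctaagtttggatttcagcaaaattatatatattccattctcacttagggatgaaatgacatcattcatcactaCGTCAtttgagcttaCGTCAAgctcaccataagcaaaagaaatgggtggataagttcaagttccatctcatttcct
EDS1, chr3:17758148-17758397, minus strand: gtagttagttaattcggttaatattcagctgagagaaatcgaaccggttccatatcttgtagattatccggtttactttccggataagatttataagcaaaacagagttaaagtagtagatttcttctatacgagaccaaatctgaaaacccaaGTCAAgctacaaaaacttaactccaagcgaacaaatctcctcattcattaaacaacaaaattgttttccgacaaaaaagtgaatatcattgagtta
LURP1, chr2:6213367-6213616, plus strand: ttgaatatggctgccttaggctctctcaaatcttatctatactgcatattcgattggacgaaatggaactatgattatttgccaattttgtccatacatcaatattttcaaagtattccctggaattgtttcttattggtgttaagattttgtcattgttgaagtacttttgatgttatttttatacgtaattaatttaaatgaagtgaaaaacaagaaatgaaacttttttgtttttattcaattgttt
PCC1 held TGACG 3 times and AT3G22235 4 times, WRKY70 held TGACG 2 times and TTGAC 1 time, EDS1 held TTGAC 1 time, and LURP1 held neither. The windows of PCC1 and AT3G22235 share a long run of letters, and reads of the pair could be split where their transcripts are as alike. Among the 144 higher genes, 47.2% had TTGAC in this window and 27.1% had TGACG, against 44.6% and 19.1% of 19492 tested genes with such a window. At least 2 copies of TTGAC were present in 35 higher genes (24.3%, against 13.9% of all), and at least 2 of TGACG in 11 (7.64%, against 3.44%). In the 37 lower genes TTGAC was found in 8 (21.6%) and TGACG in 6 (16.2%). The evening element AAAATATCT, a sequence of clock-controlled promoters, was in 2.78% of the higher genes and 2.50% of all, and the G-box CACGTG, which MYC and PIF factors bind, in 5.56% and 7.33%. A match is a description of these letters in this window and does not show that a factor binds there.

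Salicylate markers, genes that respond to the hormone, were described as a list of 18, of which 17 were in the table and 16 were tested. Like every list here, it was written with earlier results of these data known. The shares of lists called are therefore descriptions and not independent support. A total of 5 were called higher (31.25%, against 0.734% of all tested genes) and 0 lower, and the median over the 16 was 1.61, against 0.01 over all genes. Beside PCC1 and LURP1 these were WAK1, LLP and AED1. WAK1 (AT1G21250), a receptor kinase anchored in the cell wall, had 1521, 1412 and 2311 in jaz4-1 and 237, 386 and 209.7 in Col-0, and the lowest jaz4-1 library was more than 3 times the highest Col-0 library. It differed by 2.67 ± 0.34 (adjusted p 0.00025). LLP (AT5G03350), a legume-lectin-like protein, had 373, 491 and 288 in jaz4-1 and 90.0, 117 and 112 in Col-0, a difference of 1.82 ± 0.25 (adjusted p 0.000303), and here replicate 3 was the lowest of the jaz4-1 libraries. AED1 (AT5G10760), an apoplastic protease that restrains systemic immunity, had 106, 69.8 and 71.9 in jaz4-1 and 17.5, 4.86 and 23.2 in Col-0 and differed by 2.57 ± 0.43 (adjusted p 0.00209). The pathogenesis-related genes gave no call. PR2 (deposited as BGL2), a glucanase, had 129, 75.6 and 54.5 in jaz4-1 and 15.1, 17.0 and 26.6 in Col-0, a difference of 2.03 ± 0.81 that did not pass (adjusted p 0.282). PR1 had 3.73, 0.821 and 2.18 in jaz4-1 and 0, 0 and 0 in Col-0 and PR5 84.0, 64.1 and 46.9 in jaz4-1 and 40.6, 54.7 and 59.1 in Col-0, so PR1 was close to the detection floor in every library and PR5 overlapped between the lines. With limma-voom 2 of the 16 were called, and without both libraries that stood apart 4.

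Genes that make salicylate or control its signalling formed a list of 24, with 20 tested, also written with earlier results known. A total of 8 were called higher (40%, against 0.734% of all tested genes) and 0 lower. The median was 0.63, against 0.01 over all genes. ALD1, FMO1 and DLO1 were not tested for lack of reads. The largest differences were in EDS1B, ACD6 and DMR6. ACD6 (AT4G14400), an ankyrin membrane protein that promotes salicylate accumulation and cell death, had 3861, 2972 and 6675 in jaz4-1 and 266, 525 and 482 in Col-0. The groups were far apart and ACD6 differed by 3.38 ± 0.47 (adjusted p 0.000642). DMR6 (AT5G24530), an oxygenase that hydroxylates salicylate and whose loss gives mildew resistance, had 447, 504 and 469.8 in jaz4-1 and 58.1, 113 and 109 in Col-0, with 3 jaz4-1 libraries close together. It differed by 2.39 ± 0.41 (adjusted p 0.00341). NPR4 (AT4G19660), a salicylate receptor that represses defence genes, had 470.3, 494 and 574 in jaz4-1 and 250.1, 253 and 312 in Col-0, a smaller but tight difference of 0.92 ± 0.12 (adjusted p 0.000254). ACD6, DMR6 and NPR4 kept their calls whichever single dawn library was left out, and NPR4 lost it with only the dawn libraries in the fit (adjusted p 0.142).

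EDS1 and EDS1B are neighbouring, near-identical genes for lipase-like proteins that relay signals from TIR-type immune receptors, and reads could be split between them, so each value is uncertain. EDS1B (AT3G48080) had 89.6, 63.3 and 128 in jaz4-1 and 8.76, 2.43 and 5.79 in Col-0, a difference of 3.89 ± 0.62 (adjusted p 0.00134). EDS1 (AT3G48090), the more abundant copy, had 436, 458 and 483 in jaz4-1 and 272, 340.1 and 282 in Col-0 and differed by 0.63 ± 0.13 (adjusted p 0.0182). Neither pair of groups overlapped. EDS1B lost its call without both libraries that stood apart (adjusted p 0.0557), and EDS1 lost it when replicate 3 of jaz4-1 or replicate 1 of Col-0 were left out (adjusted p 0.0841 and 0.078).

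SARD1 (AT1G73805), a transcription factor that activates salicylate synthesis, had 229, 227 and 331 in jaz4-1 and 52.6, 72.9 and 76.5 in Col-0. Its 3 jaz4-1 libraries all lay above Col-0 and it differed by 1.94 ± 0.39 (adjusted p 0.0142), a call lost when replicate 3 of jaz4-1 or replicate 1 of Col-0 were left out (adjusted p 0.0831 and 0.0685). NDR1, a membrane protein required by coiled-coil immune receptors, had 125, 121 and 146 in jaz4-1 and 47.8, 51.0 and 88.0 in Col-0 and differed by 1.11 ± 0.23 (adjusted p 0.0189). NPR1, the salicylate receptor and coactivator, had 694, 587 and 675 in jaz4-1 and 407, 441 and 476 in Col-0 and differed by 0.56 ± 0.13 (adjusted p 0.0417). NDR1 was not called when replicates 1 or 3 of jaz4-1 or replicates 1 or 2 of Col-0 were left out (adjusted p 0.0654, 0.0901, 0.0889 and 0.112), and NPR1 was not called when replicates 1 or 3 of jaz4-1 or replicates 1 or 2 of Col-0 were left out (adjusted p 0.179, 0.124, 0.135 and 0.125). The synthesis enzyme ICS1 (deposited as EDS16) had 361, 338 and 289 in jaz4-1 and 270.0, 179 and 308 in Col-0, which overlap, and its difference of 0.41 ± 0.22 did not pass (adjusted p 0.432). Neither did those of PAD4 (0.54), CBP60G (0.65), PBS3 (0.60), NPR3 (0.63) and SARD4 (0.86). In this list 4 members were called when replicate 3 of jaz4-1, replicate 1 of Col-0 or both libraries that stood apart were left out.

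**Figure D2:**
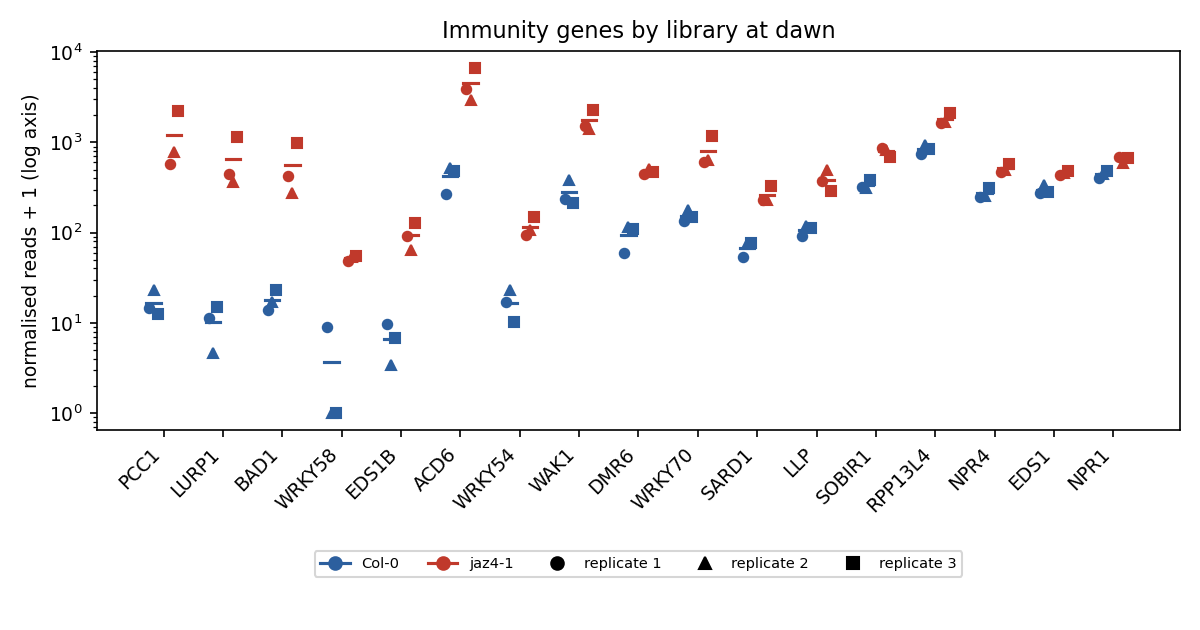
Normalised reads plus 1 (log axis) of 17 immunity genes in each of the 6 dawn libraries, with Col-0 in blue, jaz4-1 in red, a symbol for each replicate and a bar for the mean of the 3 libraries. In every gene shown the 3 jaz4-1 libraries lie above the 3 Col-0 libraries, by the widest margin in PCC1 and LURP1, and replicate 3 is the highest jaz4-1 library in PCC1, LURP1, BAD1 and ACD6 but not in SOBIR1 or LLP.

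BAD1 (AT5G54610; the files describe it as the ankyrin protein BDA1, which acts in immunity) had 428, 277 and 973 in jaz4-1 and 12.7, 15.8 and 22.0 in Col-0. It differed by 4.81 ± 0.59 (adjusted p 0.000138) and kept its call under all 18 settings tried (other pseudocounts, filters, scalings and tools, the replicate block, and left-out dawn libraries). AT5G42530, an uncharacterised gene of high abundance, had 7058, 5382 and 18972 in jaz4-1 and 1016, 698 and 789 in Col-0, a difference of 3.44 ± 0.43 (adjusted p 0.00025), and also kept its call under all 18. ECS1 (AT1G31580), a cell wall protein, reached the highest level of any gene called higher: 11342, 11516 and 24724 in jaz4-1 and 3459, 5374 and 3937 in Col-0, a difference of 1.82 ± 0.28 (adjusted p 0.000867). In BAD1, AT5G42530 and ECS1 replicate 3 of jaz4-1 was about 2 to 4 times the other jaz4-1 libraries, and the other jaz4-1 libraries still exceeded all of Col-0.

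WRKY transcription factors take part in salicylate responses. Of the 47 tested, 3 were called higher (6.38%, against 0.734% of all tested genes) and 0 lower, with a family median of 0.26. WRKY70 (AT3G56400), which favours salicylate over jasmonate responses, had 608, 636 and 1169.5 in jaz4-1 and 132, 177 and 149 in Col-0 and differed by 2.33 ± 0.31 (adjusted p 0.000313). Its close relative WRKY54 (AT2G40750) had 92.4, 106 and 148 in jaz4-1 and 15.9, 21.9 and 9.27 in Col-0 and differed by 2.85 ± 0.36 (adjusted p 0.000137). WRKY58 (AT3G01080), a factor that limits systemic resistance, had 47.6, 52.6 and 54.5 in jaz4-1 and 7.96, 0 and 0 in Col-0 and differed by 4.66 ± 0.64 (adjusted p 0.000262). It was nearly silent in Col-0, with no read in replicates 2 and 3, and its 3 jaz4-1 libraries were close together. All 3 kept their calls whichever single dawn library was left out, and WRKY58 lost it with only the dawn libraries in the fit (adjusted p 0.142). SIB1, a partner protein of WRKY33, had 41.99, 45.2 and 59.9 in jaz4-1 and 15.1, 12.1 and 11.6 in Col-0 and differed by 1.83 ± 0.36 (adjusted p 0.0101), a call lost when replicate 3 of jaz4-1 was left out (adjusted p 0.0602). WRKY33 itself, an activator of camalexin synthesis, had 228, 169 and 384 in jaz4-1 and 116, 132 and 105 in Col-0. Its groups did not overlap, but the difference of 1.06 ± 0.36 did not pass (adjusted p 0.21).

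Protein kinases made up 29 of the 144 higher genes. Of 803 tested genes that the files annotate with a kinase domain these were 3.61%, against 0.734% of all tested genes, and 2 were called lower. Their median was 0.11, with a range of -2.08 to 4.55, and 169 of the 803 had an unadjusted p under 0.05, where 2556 of all 19614 did. Leaving out both libraries that stood apart gave 13. Leaving out replicate 1 or 3 of jaz4-1 gave 17 and 15, and leaving out replicate 1, 2 or 3 of Col-0 gave 17, 16 and 53. SOBIR1 (AT2G31880), the adaptor kinase of receptor-like proteins, had 866, 825 and 695 in jaz4-1 and 316, 311 and 386 in Col-0, a difference of 1.23 ± 0.21 (adjusted p 0.00284), and kept its call under all 18 settings. BIR1, a kinase whose loss sets off SOBIR1-dependent cell death, had 640.2, 666 and 597 in jaz4-1 and 374, 407 and 345 in Col-0 and differed by 0.76 ± 0.16 (adjusted p 0.0169), a call lost when replicate 1 of jaz4-1 or replicate 1 of Col-0 were left out (adjusted p 0.0712 and 0.0534). Among 22 tested surface receptors and early signalling genes these were the only 2 called (9.09%, against 0.734% of all called higher), with a median of 0.51. The flagellin receptor FLS2 (deposited as AT5G46330) differed by -0.07 ± 0.21 (adjusted p 0.915) and its co-receptor BAK1 by 0.29 ± 0.10 (adjusted p 0.222). The MAP kinase gene MPK3 had 705, 681 and 1074 in jaz4-1 and 452, 583 and 514 in Col-0, a difference of 0.64 ± 0.18 that did not pass (adjusted p 0.104). AtRLP23, a receptor that pairs with SOBIR1, had 48.5, 26.3 and 35.97 in jaz4-1 and 6.37, 7.29 and 9.27 in Col-0 and did not pass (2.11 ± 0.54, adjusted p 0.0663; with the replicate block adjusted p 0.0425).

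Over all 29 kinase genes called higher the differences ran from 0.44 to 4.55. The lectin receptor kinase LECRK41 (AT2G37710) had 662, 729 and 837 in jaz4-1 and 326, 357 and 403 in Col-0, a difference of 1.03 ± 0.15 (adjusted p 0.000313), and LECRK44 had 817, 856 and 1025 in jaz4-1 and 361, 491 and 538 in Col-0, a difference of 0.97 ± 0.18 (adjusted p 0.00609) whose call was lost when replicate 1 of Col-0 was left out (adjusted p 0.0519). RLK1 (AT5G60900) had 109, 96.9 and 129 in jaz4-1 and 15.9, 24.3 and 20.9 in Col-0 and differed by 2.41 ± 0.34 (adjusted p 0.000312). MIK2, the receptor of SCOOP peptides, had 1738, 1796 and 2022 in jaz4-1 and 879, 1045 and 1172 in Col-0 and differed by 0.85 ± 0.16 (adjusted p 0.00651), a call lost when replicate 1 of Col-0 was left out (adjusted p 0.0516). None of these 4 overlapped between the lines. The symbol CRK covers cysteine-rich receptor kinases and also CDPK-related kinases. It gave 5 calls among 38 tested members (13.2%, against 0.734% of all tested genes), all higher, with a median of 0.44. CRK9 (AT4G23170) had 92.4, 103 and 162 in jaz4-1 and 21.5, 21.9 and 37.1 in Col-0, a difference of 2.11 ± 0.31 (adjusted p 0.000457), and kept its call whichever single dawn library was left out, though not with only the dawn libraries in the fit (adjusted p 0.106). CRK5, CRK15, AT4G23140 (described as CRK6) and AT1G70520 (described as CRK2) differed by 3.16, 2.90, 2.91 and 0.74. The first 3 had few reads and lie in a cluster of like genes on chromosome 4, where reads could be split. A single CRK gene (1) was called when replicate 1 or 3 of jaz4-1, replicate 2 of Col-0 or both libraries that stood apart were left out, and by limma-voom; leaving out replicate 1 of Col-0 gave 2. The wall-associated kinase WAK2, 2635 bases from WAK1 on the same strand, had 761, 669 and 1089 in jaz4-1 and 391, 432 and 372 in Col-0 and differed by 1.04 ± 0.18 (adjusted p 0.00249).

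Genes for ion channels, a calmodulin-like protein and MAP kinase kinases were also called, and no list of such genes was written. Of 26 tested genes annotated with an ion transport domain, 2 were called higher (7.69%, against 0.734% of all tested genes) and 0 lower. Their median was 0.18. CNGC3 and CNGC11 are adjacent genes for cyclic nucleotide-gated ion channels, 195 bases apart on the same strand of chromosome 2, and CNGC11 is known from an immunity mutant. CNGC11 (AT2G46440) had 426, 382 and 1219.7 in jaz4-1 and 53.4, 72.9 and 148 in Col-0 and differed by 2.79 ± 0.39 (adjusted p 0.000395). CNGC3 (AT2G46430) had 189, 225 and 518 in jaz4-1 and 46.99, 63.2 and 62.6 in Col-0 and differed by 2.28 ± 0.40 (adjusted p 0.00442). In each, replicate 3 of jaz4-1 stood above the other 2, and all 3 stood above Col-0. CNGC3 was not called without both libraries that stood apart (1.91 ± 0.45, adjusted p 0.0705). CML10 (AT2G41090), a calmodulin-like protein, had 4611, 4829 and 11054 in jaz4-1 and 1186, 1388 and 1425 in Col-0, a difference of 2.24 ± 0.30 (adjusted p 0.000292). The MAP kinase kinase genes MKK1 and MKK2 (deposited as ATMKK2), which act upstream of MPK4, differed by 1.21 ± 0.23 (adjusted p 0.00628) and 0.49 ± 0.12 (adjusted p 0.049). MKK1 was not called when replicate 3 of jaz4-1 was left out (adjusted p 0.0599), nor MKK2 when replicates 1 or 3 of jaz4-1 or replicates 1 or 2 of Col-0 were left out (adjusted p 0.184, 0.214, 0.133 and 0.174).

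Intracellular immune receptors of the NLR type lay mostly above 0, by small amounts. Of 35 written down, 27 were tested, and 4 were called higher (14.8%, against 0.734% of all tested genes) and 0 lower. Of the 27 values 26 were positive, with a highest value of 1.096 and a median of 0.39, against 0.01 over all genes. ZAR1 (deposited as RPP13L4, AT3G50950), which assembles into a channel on activation, had 1625, 1675 and 2109 in jaz4-1 and 744, 934 and 845 in Col-0. It differed by 1.096 ± 0.15 (adjusted p 0.00025) without overlap and kept its call under all 18 settings. The helper receptor ADR1-L1 (AT4G33300) had 1551, 1291 and 2006 in jaz4-1 and 629.9, 853 and 904 in Col-0 and differed by 1.02 ± 0.19 (adjusted p 0.00522), and its relative ADR1-L2 had 881, 858 and 1043 in jaz4-1 and 415, 599 and 577 in Col-0 and differed by 0.82 ± 0.19 (adjusted p 0.0417). RPS6, a TIR-type receptor, had 747, 825 and 1027 in jaz4-1 and 565, 594 and 573 in Col-0 and differed by 0.57 ± 0.12 (adjusted p 0.0186). RPS6 was not called when replicate 3 of jaz4-1 or replicates 1 or 2 of Col-0 were left out (adjusted p 0.113, 0.0595 and 0.0525), and ADR1-L2 was not called when replicates 1, 2 or 3 of jaz4-1 or replicates 1 or 2 of Col-0 were left out (adjusted p 0.108, 0.0522, 0.149, 0.171 and 0.0685). In this list 1 gene was called without both libraries that stood apart, 2 when replicate 3 of jaz4-1 or replicate 1 or 2 of Col-0 was left out, and 6 when replicate 3 of Col-0 was. RPP5 had 1214, 1268 and 1399.5 in jaz4-1 and 620.4, 1007 and 1004 in Col-0 and did not pass (0.59 ± 0.17, adjusted p 0.107; with the replicate block adjusted p 0.0349). SNC1, in the same gene cluster, had 3932, 3669 and 4554 in jaz4-1 and 2246, 3509 and 3119 in Col-0, a difference of 0.47 ± 0.16 (adjusted p 0.185). By annotated domain, 4 of 78 TIR genes (5.13%) and 4 of 61 NB-ARC genes (6.56%) were called higher and 0 lower, with medians of 0.44 and 0.34. Many of these receptors are members of clusters of similar genes, in which reads could be split.

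RDR1, an antiviral RNA-dependent RNA polymerase, had 262, 286 and 205 in jaz4-1 and 131, 145 and 158 in Col-0 and differed by 0.79 ± 0.17 (adjusted p 0.0214). PUB44, a ubiquitin ligase of the plasma membrane, had 673, 681 and 857 in jaz4-1 and 411, 442 and 531 in Col-0 and differed by 0.67 ± 0.12 (adjusted p 0.00384). XRN2, a nuclear exoribonuclease, had 1776, 1776 and 1574 in jaz4-1 and 1037, 1132 and 1135 in Col-0 and differed by 0.63 ± 0.10 (adjusted p 0.00163). PUB44 and XRN2 kept their calls whichever single dawn library was left out but lost them with only the dawn libraries in the fit (adjusted p 0.42 and 0.334), and PUB44 also without both libraries that stood apart (adjusted p 0.0884), while RDR1 was not called when replicates 1 or 2 of jaz4-1 or replicates 1 or 2 of Col-0 were left out (adjusted p 0.101, 0.0722, 0.0813 and 0.0741). The chromatin remodellers CHR12 and CHR23 differed by 0.68 ± 0.12 (adjusted p 0.00284) and 0.81 ± 0.13 (adjusted p 0.00097). The callose synthase CALS1 had 832, 799 and 737 in jaz4-1 and 462, 509 and 527 in Col-0 and differed by 0.66 ± 0.13 (adjusted p 0.0114), a call lost when replicate 1 of jaz4-1 or replicate 1 of Col-0 were left out (adjusted p 0.0704 and 0.0571). CRT3, the calreticulin that folds the receptor EFR, had 1376, 1127 and 1381 in jaz4-1 and 956, 924 and 877 in Col-0. Its difference of 0.49 ± 0.12 (adjusted p 0.043) was not called with the replicate block (adjusted p 0.060), nor when replicates 1 or 3 of jaz4-1 or replicates 1, 2 or 3 of Col-0 were left out (adjusted p 0.187, 0.149, 0.0729, 0.125 and 0.058), and the other 15 tested genes of folding in the endoplasmic reticulum were not called, with a median of -0.01 over all 16.

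Carrier genes for hexoses, sucrose and urea (STP1, SUC2 and DUR3) were called higher. Of 54 tested genes that the files annotate with a sugar transporter domain 1 was called (1.85%, against 0.734% of all called higher). STP1, a hexose importer, had 6218, 4253 and 5768 in jaz4-1 and 1965, 2094 and 4347 in Col-0, and the phloem sucrose loader SUC2 had 1828, 1461 and 1705 in jaz4-1 and 784, 807 and 1486 in Col-0. In both, replicate 3 of Col-0 reached into the range of jaz4-1. They differed by 1.03 ± 0.24 (adjusted p 0.0417) and 0.76 ± 0.18 (adjusted p 0.0461). STP1 was not called when replicates 1 or 3 of jaz4-1 or replicates 1 or 2 of Col-0 were left out (adjusted p 0.185, 0.139, 0.171 and 0.203), and SUC2 was not called when replicates 1 or 3 of jaz4-1 or replicates 1 or 2 of Col-0 were left out (adjusted p 0.189, 0.123, 0.185 and 0.229). SUC2 is made in companion cells, and in these bulk samples more cells of a type and more RNA per cell cannot be told apart. The 6 guard cell, trichome and vascular markers, SUC2 among them, were also summed. The sum ran from 2060.3 to 2404 normalised reads in jaz4-1 and from 1289 to 2184 in Col-0 (exact permutation p 0.2). SUC2 made up most of it in every library, so the sum largely repeats SUC2. Taken singly, 4 of the 6 markers were above 0 and 2 below, from -1.06 to 0.76. The part of cell types in these results was not tested. DUR3, the urea importer, had 216, 151 and 209 in jaz4-1 and 17.5, 18.22 and 73.0 in Col-0 and differed by 2.68 ± 0.60 (adjusted p 0.0333; with the replicate block adjusted p 0.0633), a call also lost when replicates 1 or 3 of jaz4-1 or replicates 1 or 2 of Col-0 were left out (adjusted p 0.125, 0.108, 0.129 and 0.167).

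A set of loci was close to absent in Col-0 at dawn or, for AT3G05945 and AT3G29644, low there. AT1G64795 had 190.4, 154 and 355 in jaz4-1 and 0.796, 0 and 1.16 in Col-0, which were 717 reads against 2, a ratio of 329 (95% counting interval 90.7 to 2722). This interval and those in brackets after the ratios below cover counting error only, not the spread between libraries. For AT5G15420 the counts were 461 against 0 and it was at least 141-fold higher, with the bound set at 3 reads over the Col-0 libraries. AT1G75945 had 142 against 0 and was at least 43.4-fold higher. HO3, a haem oxygenase gene that overlaps the kinase gene WAKL9 on the other strand by 16 bases, had 133 against 2, a ratio of 61.0 (16.6 to 509). XYL2 had 14 against 0 (at least 4.28-fold higher) and AT2G08585 had 21 against 1, a ratio of 19.3 (3.10 to 797); the replicate block ended both calls (adjusted p 0.0917 and 0.0584). AT3G05945 had 508, 541 and 925 in jaz4-1 and 7.96, 12.1 and 6.95 in Col-0 and differed by 6.02 ± 0.47 (adjusted p 6.58e-08), and AT3G29644, its nearest tested neighbour, had 107, 104 and 154 in jaz4-1 and 30.3, 19.4 and 10.4 in Col-0 and differed by 2.64 ± 0.43 (adjusted p 0.00143). AT1G64795, AT5G15420 and AT1G75945, and perhaps others of these genes, could pass the filter on low values through jaz4-1 alone. Summed over the other times, jaz4-1 held 399 reads of AT1G64795 where Col-0 held 0, 525 of AT5G15420 against 9, and 970 of AT1G75945 against 19. HO3 stood at 481 against 152, XYL2 at 87 against 77 and AT2G08585 at 79 against 78, so Col-0 held reads of these outside dawn. No source used here says whether the libraries were stranded, and reads of overlapping genes on opposite strands cannot be told apart; 57 of the 181 called genes overlap another annotated gene (31.5%, against 31.7% of those tested).

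The lower genes were fewer (0.189% of all tested genes), and none was a member of the pathway lists used here. QQS (AT3G30720), an orphan gene found in this species that affects starch content, had 11.2, 1.64 and 27.2 in jaz4-1 and 984, 380.2 and 575 in Col-0. Every jaz4-1 library lay far below every Col-0 library, although the jaz4-1 values differed among themselves by over 10 times. QQS differed by -5.95 ± 0.72 (adjusted p 0.000148). AT1G13650, an uncharacterised gene, had 198, 122 and 235 in jaz4-1 and 1503, 2011 and 1621 in Col-0, a difference of -3.24 ± 0.23 (adjusted p 1.36e-08) with little spread in either line. MES8 (AT2G23590), of the methylesterase family whose members release hormones such as salicylate and jasmonate from their methyl esters, had 23.3, 17.3 and 15.3 in jaz4-1 and 94.8, 118 and 86.9 in Col-0 and differed by -2.37 ± 0.29 (adjusted p 0.000123). QQS, AT1G13650 and MES8 kept their calls under all 18 settings.

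AT1G61500 and AT3G20200 were the kinase genes called lower. AT1G61500, a lectin receptor kinase, had 46.7, 83.0 and 86.1 in jaz4-1 and 165, 221 and 168 in Col-0 and differed by -1.39 ± 0.24 (adjusted p 0.00279). AT3G20200 had 39.2, 15.6 and 17.44 in jaz4-1 and 65.3, 77.7 and 77.6 in Col-0 and differed by -1.69 ± 0.30 (adjusted p 0.00379). The F-box gene AT3G59250 had 11.2, 10.7 and 15.3 in jaz4-1 and 32.7, 69.2 and 49.8 in Col-0 and differed by -1.90 ± 0.34 (adjusted p 0.00468), and the oxygenase gene AT1G68080 had 78.4, 100.2 and 128 in jaz4-1 and 214, 216 and 214 in Col-0 and differed by -1.09 ± 0.17 (adjusted p 0.00124). With QQS, AT1G13650 and MES8, these 4 made up the 7 lower genes that kept their calls whichever single dawn library was left out. These 4 lost them with only the dawn libraries in the fit (adjusted p 0.258, 0.42, 0.385 and 0.277 in the order given), and AT3G20200 also without both libraries that stood apart (adjusted p 0.0709). The adjacent methyltransferase genes AT1G69523 and AT1G69526, 1 base apart on the same strand, differed by -1.10 ± 0.24 (adjusted p 0.0235) and -1.95 ± 0.40 (adjusted p 0.0163). AT1G69526 had 20.53, 20.54 and 74.1 in jaz4-1 and 120.3, 120.2 and 134 in Col-0, with replicate 3 of jaz4-1 nearest to Col-0. AT1G69523 was not called when replicates 1 or 2 of jaz4-1 or replicate 1 of Col-0 were left out (adjusted p 0.0974, 0.072 and 0.0806), nor AT1G69526 when replicates 1 or 2 of jaz4-1 or replicates 1 or 2 of Col-0 were left out (adjusted p 0.113, 0.0616, 0.0516 and 0.0622). FLZ8, a zinc finger protein that binds the energy-sensing kinase SnRK1, had 89.6, 117 and 49.0 in jaz4-1 and 182, 194 and 165 in Col-0 and differed by -1.15 ± 0.24 (adjusted p 0.0167), a call lost when replicate 3 of jaz4-1 or replicates 1 or 2 of Col-0 were left out (adjusted p 0.0953, 0.0556 and 0.0873). LSF2, a phosphoglucan phosphatase of starch breakdown, had 271, 284 and 386 in jaz4-1 and 467, 545 and 476 in Col-0 and differed by -0.68 ± 0.14 (adjusted p 0.0142), a call lost when replicates 1 or 2 of jaz4-1 or replicate 2 of Col-0 were left out (adjusted p 0.107, 0.0509 and 0.0963). The rest of the lower genes had small differences, down to -0.51, and include genes of mitochondria and the proteasome such as NDB1 (-0.63), TIM21 (-0.51; with the replicate block adjusted p 0.054) and PAD2 (-0.51).

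**Figure D3:**
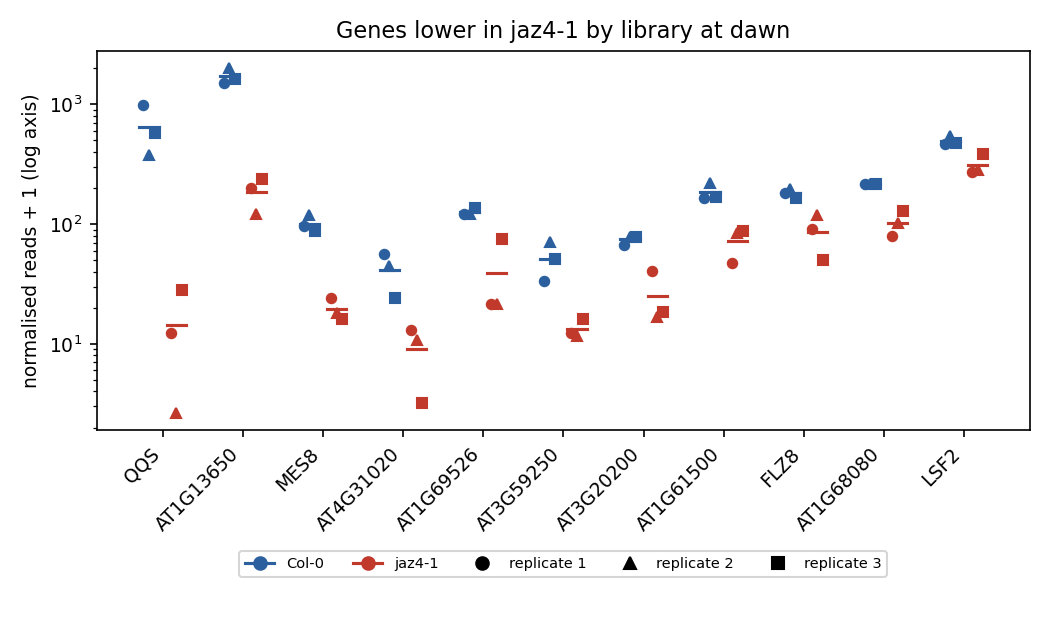
Normalised reads plus 1 (log axis) of 11 genes called lower in jaz4-1, in each of the 6 dawn libraries, with Col-0 in blue, jaz4-1 in red, a symbol for each replicate and a bar for the mean of the 3 libraries. The jaz4-1 libraries lie below the Col-0 libraries in every gene shown, and QQS has the widest gap and the widest spread within jaz4-1.

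Jasmonate genes themselves gave no call at dawn by limma. With 0.923% of all tested genes called, lists this short can hold 0 calls without differing from other genes. Of 13 JAZ genes 11 were tested, 0 with an unadjusted p under 0.05, with a median of 0.11 and a range of -1.34 (JAZ4) to 0.54. JAZ6 (deposited as TIFY11B) had 670.0, 610.4 and 1156 in jaz4-1 and 611, 418 and 604 in Col-0, which overlap, a difference of 0.54 ± 0.31 (adjusted p 0.485). The 19 tested genes of jasmonate synthesis and catabolism had a median of 0.04, with 1 at an unadjusted p under 0.05. LOX2, the chloroplast lipoxygenase, had 2793, 3196 and 1770.1 in jaz4-1 and 1605, 3628 and 5511 in Col-0, a wide overlap, and differed by -0.34 ± 0.41 (adjusted p 0.774). JAR1, which makes jasmonoyl-isoleucine, differed by 0.40 ± 0.14 (adjusted p 0.234), and the cyclase gene AOC4 by -0.43 ± 0.22 (adjusted p 0.417). Perception and response genes (15 tested, 1 at an unadjusted p under 0.05) had a median of 0.13, with 11 above 0 and 4 below. They ranged from -0.49 to 2.75, the value of TAT3 (SE 1.83, adjusted p 0.552). Among them NINJA (deposited as AFPH2), the adaptor that links JAZ proteins to co-repressors, had 831, 927 and 955 in jaz4-1 and 1046, 1352 and 1081 in Col-0, lower in jaz4-1 without overlap, but its difference of -0.35 ± 0.11 did not pass (adjusted p 0.139). The storage protein gene VSP2, a classical jasmonate marker, had 109, 149.5 and 91.6 in jaz4-1 and 174, 148 and 145 in Col-0. The receptor gene COI1 differed by 0.09 ± 0.15 (adjusted p 0.832). MYC2 was not analysed here.

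Clock genes did not pass the test either: 30 were tested by limma, 0 were called, 2 had an unadjusted p under 0.05 and the median was 0.10. Since 0.923% of all tested genes were called, 0 calls in this list or the starch list below are close to that share. The dawn genes CCA1 and LHY had 13118, 12981 and 17709.7 in jaz4-1 and 10896, 13122 and 13889.8 in Col-0 and 25339.8, 26284 and 31857 in jaz4-1 and 20710.1, 28862 and 26447 in Col-0, and both overlapped between the lines. PRR5 (deposited as APRR5) differed by 1.15 ± 0.39 (adjusted p 0.188) on at most 5.58 normalised reads, and JMJ30, an evening gene, by -0.68 ± 0.28 (adjusted p 0.296). The starch list (29 tested, median 0.07, 4 at an unadjusted p under 0.05) gave no call, and LSF2, called lower above, was not written into it. The chloroplast amylase gene AMY3 had 70.9, 86.3 and 47.96 in jaz4-1 and 111, 111 and 88.0 in Col-0 and differed by -0.62 ± 0.18 (adjusted p 0.123; with the replicate block adjusted p 0.019). Photosynthesis genes of the nucleus (28 tested) lay between -0.42 and 0.30 with a median of -0.05, none called or at an unadjusted p under 0.05. A p that misses the threshold does not show that the lines were alike.

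Some lists leaned one way without a call. Among all 19614 tested genes, 2556 had an unadjusted p under 0.05 and the median was 0.01. The flavonoid and touch lists below were close to that share by unadjusted p. Of 17 genes of aliphatic glucosinolates, the defence compounds made from methionine, 14 were below 0, with a median of -0.52, and 8 had an unadjusted p under 0.05. MYB29, an activator of the pathway, had 400.3, 367 and 457 in jaz4-1 and 879, 699.6 and 485 in Col-0 and differed by -0.72 ± 0.23 (adjusted p 0.178), and FMOGS-OX3, which oxidises the side chain, had 313, 292 and 203 in jaz4-1 and 692, 466 and 316 in Col-0 and differed by -0.82 ± 0.32 (adjusted p 0.273; with the replicate block adjusted p 0.0167). In both, all jaz4-1 libraries lay below all Col-0 libraries. Of 13 flavonoid and anthocyanin genes 10 were below 0, with a median of -0.37 and 2 at an unadjusted p under 0.05: the anthocyanin regulator TT8 had 4.67, 3.29 and 3.27 in jaz4-1 and 15.1, 19.4 and 12.7 in Col-0 (-1.82 ± 0.64, adjusted p 0.217) and the enzyme gene LDOX 112, 102 and 29.4 in jaz4-1 and 268, 312 and 161 in Col-0 (-1.76 ± 0.82, adjusted p 0.372). Rapid stress and touch genes (14 tested, 2 at an unadjusted p under 0.05) had a median of 0.53, and CML12, a touch-induced calmodulin-like gene, had 1549, 1058 and 2809 in jaz4-1 and 663, 754 and 843 in Col-0 and differed by 1.15 ± 0.40 (adjusted p 0.219). Camalexin and callose defence genes (9 tested, 2 at an unadjusted p under 0.05) had a median of 0.39. No gene was called among those of abscisic acid and cold (16), growth (14), heat shock (5), indole glucosinolates (10), flowering (12) or DNA methylation (15), nor among 62 NAC, 56 ERF, 70 UGT, 24 XTH, 19 BBX and 13 TPS genes. The share called over all tested genes was 0.923%, so single lists of these sizes can hold 0 calls at that share.

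**Figure D4:**
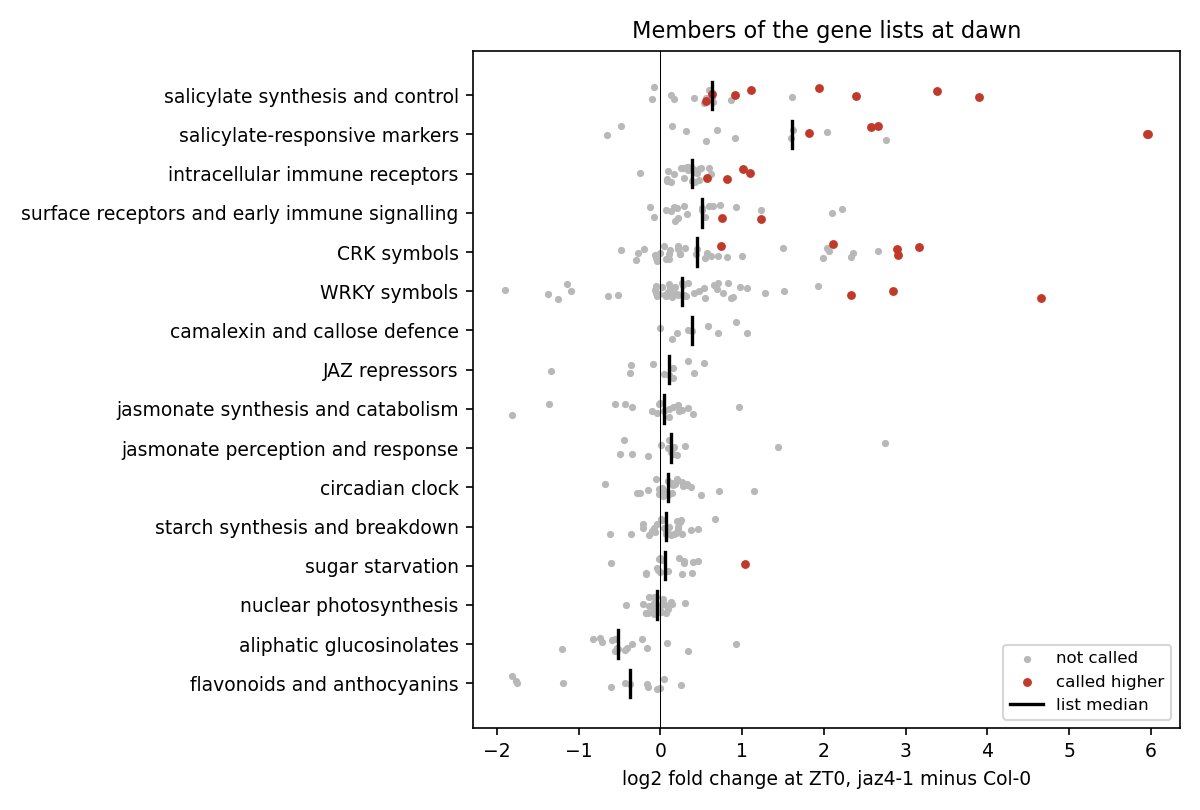
Log2 fold change at dawn (horizontal axis, jaz4-1 minus Col-0) of the tested members of 16 gene lists and families, 1 point a gene, with genes called higher in red, genes not called in grey and a bar at the list's median. The medians run from -0.52 (aliphatic glucosinolates) to 1.61 (salicylate-responsive markers), and the called genes lie in the immunity lists apart from STP1 among the sugar starvation genes.

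The same genes were followed at the other times of the day. Those libraries did not enter the dawn fold changes, but they did enter the estimate of spread behind the dawn calls, so the calls at the other times are not independent of those at dawn. On the mean of ZT6, ZT12 and ZT18, 140 of the 144 higher genes were above 0 (47.9% of all tested genes were), and 101 were above 0 at each of the 3 times (17.9% of all). At this mean 67 of the 144 were also called, where 328 genes were called higher (1.67%) and 89 lower (0.454%). Of the 37 lower genes 35 were below 0 on the mean (52.1% of all), 31 at each time (18.25% of all) and 16 called. The median difference at the other times was 0.44 for the higher and -0.37 for the lower genes. The dawn difference was larger than that mean in 141 and 36 of them, but the genes were chosen by their dawn values, which alone favours this. The test of the dawn difference against the other times called 1 gene (0.0051%), AT1G13650, by limma, 1 by edgeR, 1 by limma-voom and 29 by DESeq2; 1248 genes had an unadjusted p under 0.05. PCC1 differed by 2.53, 0.05 and 4.90 at ZT6, ZT12 and ZT18, LURP1 by 0.65, 0.17 and 4.39, WRKY70 by 1.296, 0.67 and 1.36, and WRKY58 by -0.30, 0.12 and 1.33. QQS differed by -7.36, -5.38 and -5.67, close to its value at dawn.

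**Figure D5:**
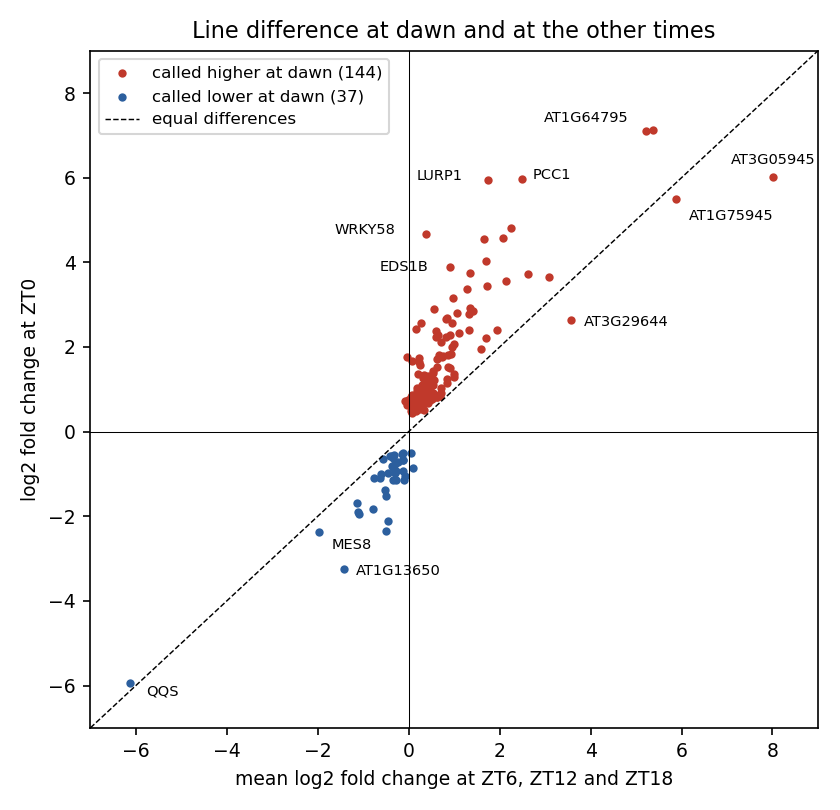
Log2 fold change at ZT0 (vertical axis) against the mean log2 fold change at ZT6, ZT12 and ZT18 (horizontal axis) for the 144 genes called higher (red) and the 37 called lower (blue) at dawn, with a dashed line where the differences are equal. Most points lie on the same side of 0 on both axes and farther from 0 at dawn, and QQS, AT1G75945, AT3G05945 and AT3G29644 lie near the line or beyond it.

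Called genes were spread over all chromosomes, with 36, 20, 34, 25 and 29 higher genes on chromosomes 1 to 5 and 6, 4, 10, 7 and 10 lower ones. These chromosomes held 5169, 2941, 3885, 2981 and 4517 tested genes. A total of 11 pairs of called genes were next to each other among the tested genes, 10 of them with the same direction and 7 on the same strand. No rate over all neighbouring tested genes was computed to set beside these pairs. Beside the pairs already given they were CRK5 with AT4G23140, AT5G42530 with XRN2, and the receptor kinase genes AT5G59670 and AT5G59680, 845 bases apart. AT5G59670 had 356, 257 and 498 in jaz4-1 and 35.8, 89.9 and 40.5 in Col-0 and differed by 2.79 ± 0.48 (adjusted p 0.00379), a call that the replicate block ended (with the replicate block adjusted p 0.0558), and AT5G59680 differed by 4.55 ± 0.93 (adjusted p 0.0144), a call lost when replicate 3 of jaz4-1 or replicate 2 of Col-0 were left out (adjusted p 0.0726 and 0.115). The pair with opposite directions, AT5G27280 (higher, 0.87) and AT5G27290 (lower, -0.99), overlaps by 90 bases on opposite strands. In the table that the authors deposited, 106 genes had an adjusted p under 0.05 at dawn, and 78 of them were called here. The authors' log2 fold changes were smaller in size than those here in most named genes, as in PCC1 (1.28 against 5.96). The sizes are therefore unlike measures. Calls made here that did not pass there included QQS (authors' log2 fold change -0.60, adjusted p 0.076) and EDS1 (authors' adjusted p 0.258). CML12 and LDOX, which were not called here, passed there (authors' adjusted p 0.00738 and 0.0368).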

How the data were processed

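RNA-seq of whole rosettes was used, 3 libraries of each line at ZT0 for the comparison and 24 libraries in the fit. The submitters' processing notes name HISAT2, featureCounts and TAIR10, without versions. Per the file headers the deposited values are RPKM, yet they behave as a signal unit: whole reads over 1 factor for each library, set by the authors within each time. Whole reads were recovered from 100% of values (tolerance 0.001). The authors' deposited log2 fold changes and p-values at ZT0 are used only where their table is named.

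Of 24503 genes, 24297 matched RefSeq TAIR10.1, which gave names, positions and upstream sequences. The test was limma-trend (limma 3.58.1, R 4.3.3, robust) on log2(value + 1), with 1 coefficient per line and time, after edgeR's filterByExpr (edgeR 4.0.16; minimum count 10, total 15) on the recovered reads. Residual degrees of freedom were 16, with a median prior value of 6.24. It was also run on simulated data, with the same spread setting for every gene and no libraries that stood apart. That run does not show how the test behaves on these libraries. The written design foresaw edgeR for raw counts; the scaled values called for limma. Same-numbered dawn libraries deviated together (correlations 0.157, 0.130 and 0.228), so the numbers were taken as pairs in the replicate block. The block paired same-numbered libraries at every time, not only at dawn. At the other times such libraries did not all deviate together (ZT6 gave 0.0555, 0.128 and 0.133, ZT12 gave 0.0182, 0.0461 and 0.0434, while ZT18 gave 0.327, 0.141 and -0.0978). The comparison, the lists and the rule for named genes were chosen with earlier results of these data known. Named genes were JAZ4, the 15 largest and 15 smallest differences among called genes with a mean of at least 20 normalised reads and no overlap, up to 4 called members a list, called neighbours, and 2 genes of each list without a call; others were chosen after their values were seen. List members whose locus does not carry the symbol were dropped. Alternatives were the pseudocount, filter, scaling, tool, block and left-out libraries; leaving out both libraries that stood apart was added after seeing the data.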

Additional observations from a re-analysis of the deposited data

Results flagged for a closer look

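AT1G13650, an uncharacterised gene, was the 1 gene whose line difference at dawn differed from that at the other times by limma: the dawn difference minus the mean of the others was -1.82 ± 0.26 on the log2 scale (adjusted p 0.0115). It had 198, 122 and 235 in jaz4-1 and 1503, 2011 and 1621 in Col-0 at dawn, and differed by -3.24 ± 0.23 there and by -0.61, -1.50 and -2.18 at ZT6, ZT12 and ZT18. It was no longer called with replicate 2 of jaz4-1 left out (-1.54, adjusted p 0.0577) or with replicate 2 of Col-0 left out (-1.69, adjusted p 0.141).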

How the results depend on the processing

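The numbers of genes higher, lower and different at dawn from the other times (144, 37 and 1 here) stayed within 1.5 times for higher and lower genes with a pseudocount of 0.5 or 5, no filter, a mean of at least 20 normalised reads, TMM scaling, edgeR and no robust fit; a pseudocount of 5 gave 3 genes different at dawn. Limma-voom gave 15 lower genes, and DESeq2 264 higher, 100 lower and 29 different at dawn. The replicate block gave 90 lower and 2 different at dawn and changed the calls named with the results. With only the ZT0 libraries in the fit, 26 genes were higher and 3 lower, and without both libraries that stood apart 67 were higher. Leaving out 1 library at a time gave 74 to 439 higher genes, 15 to 224 lower genes and 0 to 7 different at dawn, and JAZ4 ran from -2.50 to -0.74, never called. Of 61 named called genes, 18 kept their call under all 18 settings and 38 without each single dawn library. Without both libraries that stood apart ABI2 at ZT0 turned to -0.0051 and SCR at ZT0 to 0.0847, and SCR ran from -0.14 to 0.014 over the single left-out libraries; neither was called in any fit reported here. The cause of these changes was not tested, except that fits on fewer libraries have fewer degrees of freedom. With 3 libraries a line, small differences of low genes are not detectable.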
